A study of Mus musculus with 18 samples.

Results

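The 48 genes described here encode proteins that carry a cell through mitosis: the B-type cyclins and CDK1, the polo-like and Aurora kinases, the spindle checkpoint, the centromere and kinetochore, the mitotic kinesins, spindle and chromosome proteins, and the cytokinesis machinery. They were chosen by name for these roles, but with earlier results of these data known, so that their counts beside all genes only describe them. All 48 were found among the 43432 genes of the RNA-seq table. Of these, 47 reached a mean of at least 50 scaled reads over the 8 RNA libraries, as did 10972 genes in all. Cks2, a small CDK-binding protein, stayed under that mean and was not tested.

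The study mapped protein-occupied sites on messenger RNA in mouse T cells by GCLiPP, in which ultraviolet light fixes proteins to the RNA they touch and the protected RNA fragments are sequenced, and it measured RNA levels in the same kinds of cells. T cells of C57BL/6 mice were activated with plate-bound antibodies to CD3 and CD28 and cultured for 5 days in all (per the methods they left the antibodies after 3 days), either as Th2 cells, a helper T cell subset grown with IL-4, anti-Ifn-gamma and IL-2, or as CD8 cells, the cytotoxic T cell lineage, grown with IL-12 and IL-2. For the last 4 hours the cells received fresh medium only (resting) or PMA and ionomycin (stimulated), a drug pair that mimics antigen receptor signalling, so that the resting cells had themselves been activated days earlier. RNA libraries came from resting and stimulated cells with and without actinomycin D, an inhibitor of transcription whose exposure time the labels do not give. There was 1 RNA library for each of the 8 combinations, and 10 GCLiPP libraries, 3 per condition for Th2 and 2 per condition for CD8 cells, were pooled into a single list of peaks. Irradiation with 8000 mJ at 254 nm is listed for all RNA and GCLiPP libraries. Per the methods, cells from 3 mice were combined for each crosslinked preparation. Nuclei were pelleted before poly(A) RNA was taken from that lysate for RNA-seq. For cells given actinomycin D the methods describe addition of the drug after the stimulation, for times up to 4 hours, and lysis in Trizol LS. The labels state neither order nor lysis for these libraries, so that where the preparations differed, drug and preparation cannot be told apart.

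Entry into mitosis requires CDK1 bound to cyclin A or B, which the CDC25 phosphatases switch on and to which polo-like and Aurora kinases add a positive loop. The spindle checkpoint then holds back the anaphase-promoting complex, APC/C, until every kinetochore is attached, after which CDC20 directs the destruction of securin and cyclin B. Many of the genes involved are transcribed in a wave late in the cell cycle, and their promoters are known for a CHR element, whose core reads TTTGAA, beside CCAAT boxes. In dividing T cells these transcripts mark the cells that are cycling, and a bulk library gives them as a share of all RNA, in which fewer cells of a type and less RNA per cell cannot be told apart.

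The promoters are shown first because the genes share letters that the choice by function did not use. RefSeq promoter windows of the GRCm38.p6 assembly, from 250 bases before to 50 after the transcription start, were matched for 40 of the 48 genes. Aurkb, Ccna2, Cdc25c, Dlgap5, Fam64a, Incenp, Kif20a and Tpx2 were not matched. TTTGAA occurred on either strand in 28 of the 40, or 70.0%, beside 13.8% of the 7288 tested genes with a window and 20.2% of all 27025 genes with one. In 26 of these genes a copy began within 50 bases of the start site. CCAAT occurred on either strand in 30 of the 40 genes, beside 43.1% of the tested genes. The variant TTTAAA, which reads the same on both strands, occurred in 11 of the 40, or 27.5%, beside 10.6% of the tested genes. The E2F-type letters TTGGCGC or TTCGCGC occurred in 5 of the 40, beside 8.48% of the tested genes. The following 30-base windows are from genes whose RNA values are given below, except Kif23, which is covered below only by the range of the kinesins. They carry the TTTGAA core in capitals and are read 5′ to 3′ on the strand named, all being on the sense strand of the gene except that of Kif11.
Kif23, 3 bases after the start (chr9:61946780-61946809, minus strand): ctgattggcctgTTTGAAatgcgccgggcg
Cenpf, 3 bases after the start (chr1:189688067-189688096, minus strand): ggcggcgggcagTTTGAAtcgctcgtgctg
Kif18b, 4 bases after the start (chr11:102925104-102925133, minus strand): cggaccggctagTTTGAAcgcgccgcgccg
Cenpa, 17 bases after the start (chr5:30666890-30666919, plus strand): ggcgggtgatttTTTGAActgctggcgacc
Plk1, 31 bases after the start (chr7:122159453-122159482, plus strand): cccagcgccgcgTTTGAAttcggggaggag
Cdk1, 15 bases before the start (chr10:69352910-69352939, minus strand): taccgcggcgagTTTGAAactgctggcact
Cdc20, 18 bases before the start (chr4:118437344-118437373, minus strand): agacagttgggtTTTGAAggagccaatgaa
Kif11, 19 bases before the start (chr19:37376351-37376380, minus strand, antisense to the gene): ccgcgcctcaatTTTGAAaaatggagacga
A match is a run of letters and was not tested for binding. Cdk1 and Cenpa, which were not called on stimulation without drug, carry it as do Cenpf and Kif11, which fell. The difference between these genes in their responses, given below, was not tested.

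The RNA libraries held between 24154849 and 31042504 reads, recovered from the deposited values, which are whole reads divided by a size factor per library. All 8 T cell markers had at least 1698 scaled reads in every library. The summed Th2 markers lay between 32390 and 124117 in Th2 libraries against 2412 to 4089 in CD8 libraries, while the summed CD8 markers lay between 275408 and 596705 in CD8 libraries against 96863 to 155911 in Th2 libraries. With quantile normalisation and with scaling to ribosomal protein genes, 6 of the 7 Th2 markers were called lower in CD8 cells and 1 higher. All 6 CD8 markers were called higher in CD8 cells under both. Of the 6 B cell markers 4 reached a mean of 50, with sums of 9010 to 12878 in Th2 and 3363 to 8224 in CD8 libraries that were mostly Ighm, while Pax5 did not exceed 17.5. Of 5 myeloid markers only Cd68 reached it, and the sums lay between 114 and 479. Of 14 early activation genes 12 rose on stimulation without drug, with a median log2 change of 2.91. Since each condition had 1 library per cell type, the limma model of cell type, stimulation and drug took its error from how far Th2 and CD8 cells differed in their responses, and its p-values measure that spread rather than the spread between cultures.

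Stimulation without actinomycin D lowered most of the mitosis genes. At an adjusted p under 0.05 in limma, 41 of the 47 tested fell and 0 rose, beside 13.4% of all tested genes that fell and 14.7% that rose, and at an unadjusted p under 0.05 the number passing was 42. The median log2 change of the 47 genes was -1.18, against 0.03 over all tested genes. In 43 of the 47 both resting values lay above both stimulated values, as they did in 23.8% of all tested genes. The 48 genes together made up 1.01% of all scaled reads in resting Th2 cells and 1.03% in resting CD8 cells, and 0.339% and 0.493% after stimulation. For 12 of the 48 genes (Ccna2, Ccnb1, Cdc20, Cdc25b, Cdc25c, Cdca8, Cks2, Kif20a, Kif4, Nusap1, Plk1 and Ube2c) the counts are uncertain, since at least 10% of their 50-base words occur in another gene or an expressed gene overlaps them on the opposite strand, and of the 36 others 32 fell. Without the resting Th2 library 24 of the 47 were called, when the calls over all genes also fell from 3088 to 783.

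**Figure D1:**
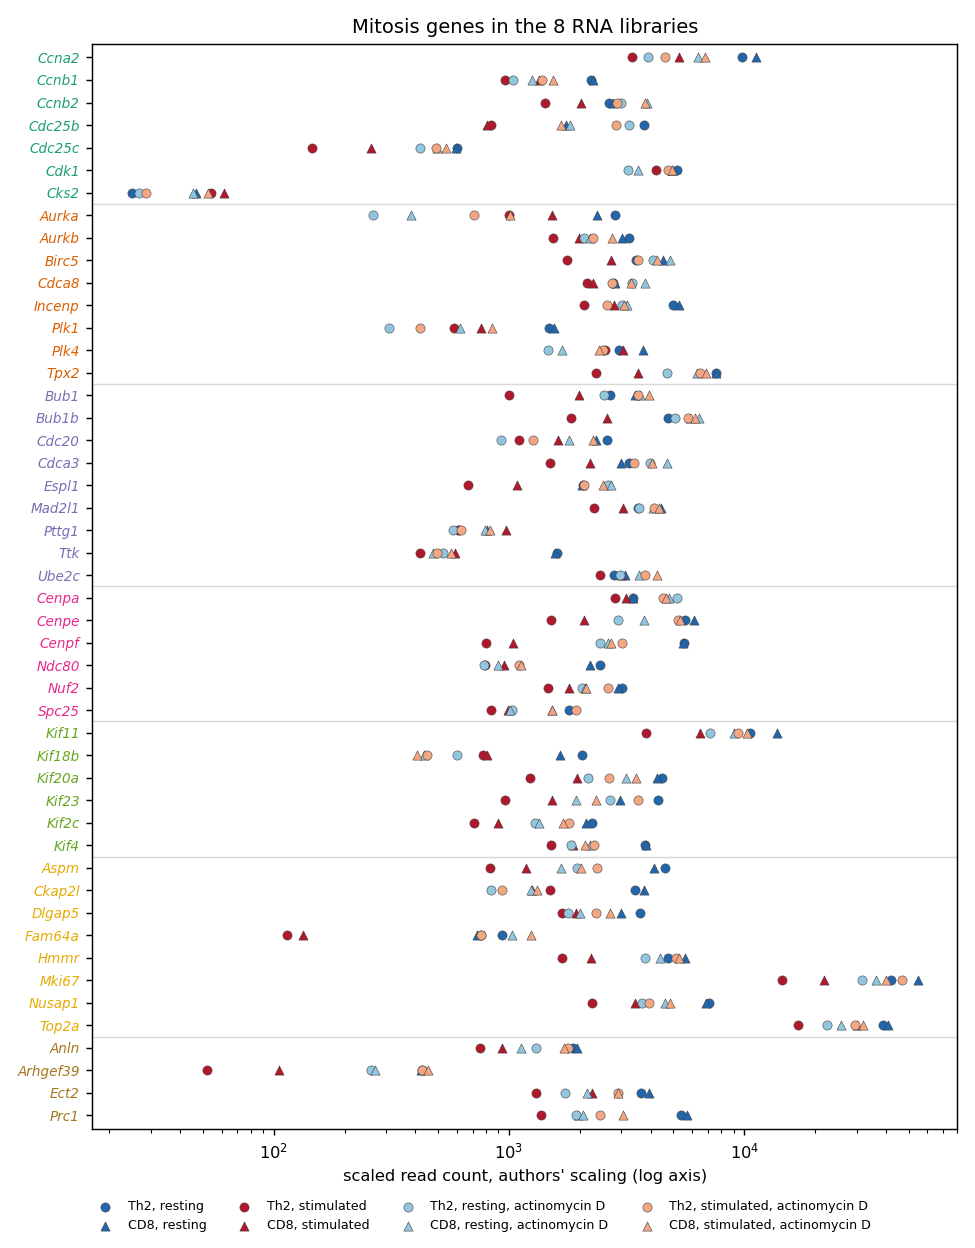
Scaled reads of each of the 48 genes (rows, coloured and divided by role) in the 8 RNA libraries on a log axis. Circles are Th2 and triangles CD8 libraries, 1 library per symbol. Dark red symbols, the stimulated cells without drug, lie left of dark blue symbols, the resting cells, in most rows, while Pttg1, Cdk1, Cenpa and Ube2c keep them close together.

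Among the cyclins, CDK1 and the CDC25 phosphatases, 5 of 6 tested genes fell. Ccnb1, the cyclin B that drives entry into mitosis, had 2227 scaled reads in resting Th2 and 2265 in resting CD8 cells, and 960 and 1337 after stimulation. Both stimulated values lay well under both resting values, a log2 change of -0.99 ± 0.15 (SE, limma adjusted p = 0.00479). Of its 50-base words 23.4% also occur in another gene, mostly a pseudogene copy. Ccna2, cyclin A, went from 9800 and 11238 in resting Th2 and CD8 cells to 3334 and 5285. Cdc25b and Cdc25c, phosphatases that activate CDK1, had log2 changes of -1.64 and -1.62. Cdk1 itself differed, with 5172 and 4935 reads in resting Th2 and CD8 cells and 4231 and 4936 after stimulation. The CD8 values were almost equal and the fitted log2 change of -0.14 ± 0.13 was not called (limma adjusted p = 0.412). Cks2 was listed at 24.9 and 46.7 in resting and 54.4 and 61.6 in stimulated Th2 and CD8 cells, and 29.7% of its words occur elsewhere.

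Of the 8 polo-like and Aurora kinases and their cofactors, 6 fell. Plk1, which acts from mitotic entry to cytokinesis, had 1475 and 1552 scaled reads in resting Th2 and CD8 cells and 581 and 762 in stimulated cells, a log2 change of -1.18 ± 0.25 (limma adjusted p = 0.0146). Aurkb, the kinase of the chromosomal passenger complex, went from 3224 and 3016 to 1531 and 1985 (-0.84 ± 0.15, limma adjusted p = 0.00856). Birc5, or survivin, another passenger subunit, went from 3461 and 4527 to 1762 and 2722 (-0.85 ± 0.14, limma adjusted p = 0.00596). For all 3 genes the stimulated values of both cell types lay under both resting values. Incenp, the scaffold of that complex, had a log2 change of -1.08, whereas Cdca8, or borealin, had -0.34 and was not called (limma adjusted p = 0.0821). The subunits of this 1 complex had unequal changes, and that inequality was not tested. Plk4, which starts centriole duplication, had a log2 change of -0.23 and was not called either.

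Of the 9 checkpoint and anaphase genes 7 fell. Cdc20, the APC/C activator, had 2619 and 2333 scaled reads in resting Th2 and CD8 cells and 1108 and 1618 after stimulation. Its log2 change was -0.88 ± 0.26 (limma adjusted p = 0.0423), and the fall was larger in Th2 than in CD8 cells. Ttk, or MPS1, and Bub1b, both checkpoint kinases or kinase-like proteins, had log2 changes of -1.67 and -1.27, and Espl1, the separase that cleaves cohesin, had -1.27. The 2 genes of this role that were not called were Pttg1, the securin that restrains separase, with 609 and 805 at rest and 613 and 971 after stimulation, and Ube2c, an APC/C ubiquitin-conjugating enzyme, with 2793 and 3115 at rest and 2431 and 3000 after stimulation. The difference between separase and its inhibitor securin was not tested.

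At the centromere and kinetochore 5 of 6 genes fell. Cenpf, a kinetochore-associated protein of late cell cycle cells, had 5532 and 5516 scaled reads in resting Th2 and CD8 cells and 795 and 1043 in stimulated cells. That was a 6.06-fold lower level (log2 -2.60 ± 0.16, limma adjusted p = 0.000283). The kinetochore motor Cenpe and the NDC80 complex genes Ndc80, Nuf2 and Spc25 had log2 changes of -1.73, -1.42, -0.88 and -0.86. Cenpa, the histone H3 variant that marks centromeres, had 3370 and 3356 at rest and 2819 and 3127 after stimulation, and its log2 change of -0.18 ± 0.12 was not called (limma adjusted p = 0.302). It was the gene of this role with the highest level per kilobase of exon.

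All 6 kinesins, all 8 spindle and chromosome genes and all 4 cytokinesis genes fell. Kif11, the motor that pushes spindle poles apart, had 10569 and 13805 scaled reads in resting Th2 and CD8 cells and 3836 and 6487 after stimulation (log2 -1.28 ± 0.16, limma adjusted p = 0.00275). The kinesins as a group spanned log2 changes from -1.56 to -1.18, the narrowest range of the 7 roles. Mki67, the chromosome-coating protein Ki-67, went from 42114 and 54812 to 14449 and 21757 (-1.44 ± 0.19, limma adjusted p = 0.0033). Top2a, the topoisomerase that untangles chromosomes, went from 38715 and 40638 to 16969 and 30022 (-0.81 ± 0.19, limma adjusted p = 0.0218). These were the 2 most abundant of the 48 genes, and in stimulated CD8 cells Top2a kept much more of its resting level than in Th2 cells. The largest fall was that of Fam64a, also named Pimreg, from 930 and 733 to 114 and 133, or 6.66-fold lower (log2 -2.73 ± 0.25, limma adjusted p = 0.000919). Arhgef39, listed here with the cytokinesis genes, went from 425 and 422 to 52.1 and 105 (-2.50 ± 0.28, limma adjusted p = 0.00178). Aspm, a spindle pole protein, went from 4623 and 4134 to 830 and 1183 (-2.14 ± 0.20, limma adjusted p = 0.00105). In each of these the 2 stimulated values lay far under the 2 resting values.

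The log2 change on stimulation without drug was lower in Th2 than in CD8 cells for 45 of the 47 genes. That order was found in 50.7% of all tested genes, and this difference between the cell types had no replicate check. The median log2 change was -1.39 in Th2 and -1.01 in CD8 cells. In Th2 cells 38 of the 47 were at least 2-fold lower, beside 8.97% of all tested genes, and in CD8 cells 24 were, beside 5.00%. At rest the cell types were close, with a median CD8 minus Th2 log2 difference of 0.00, while in stimulated cells it was 0.48. Over all 8 libraries 8 genes were called higher in CD8 cells and 1 lower, beside 18.1% and 18.7% of all tested genes, so that the count did not exceed the background. Ccna2 had the second largest of the rises (log2 0.54 ± 0.11, limma adjusted p = 0.00788) and Plk1 the largest (0.62 ± 0.18, limma adjusted p = 0.0305). Cdc25b was the 1 gene that was lower in CD8 cells (-0.69 ± 0.17, limma adjusted p = 0.0167), with 3753 scaled reads in resting Th2 against 1739 in resting CD8 cells but 835 against 807 after stimulation. Birc5 (0.38) and Kif11 (0.40) were also called higher in CD8 cells. Without the resting actinomycin D library of Th2 or of CD8 cells the number called was 1 or 0. Over all 10972 tested genes 2410 or 2380 were then called, against 4037 in the full fit.

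**Figure D2:**
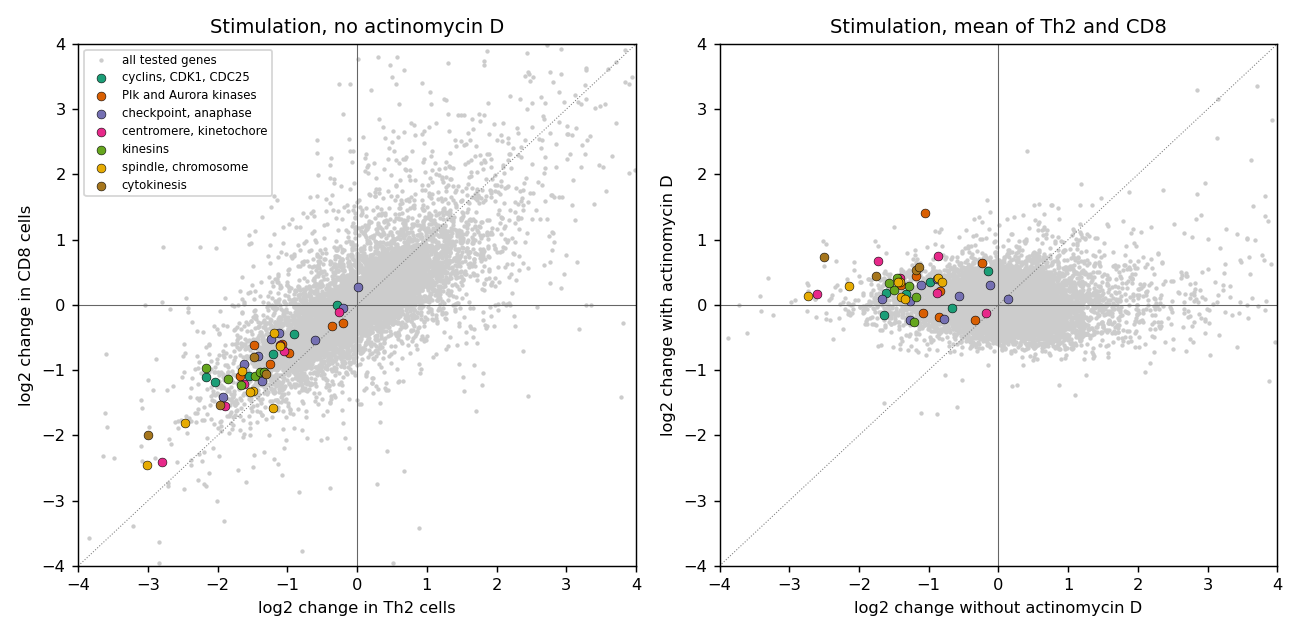
Log2 changes on stimulation, with mitosis genes coloured by role over all tested genes in grey, the dotted line marking equal changes. Left, Th2 (x) against CD8 cells (y) without drug, where 45 of 47 mitosis genes lie above the dotted line. Right, the mean change without (x) against with (y) actinomycin D, from separate libraries, where most mitosis genes lie left of 0 on x and above 0 on y. Genes beyond 4 on either axis, 75 on the left and 34 on the right, are not drawn.

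Between stimulated and resting cells that both had actinomycin D, none of the mitosis genes were called. At an adjusted p under 0.05 in limma 0 of the 47 genes rose and 0 fell, beside 0.0911% of all tested genes that rose and 0% that fell, while 15 of the 47 passed an unadjusted p under 0.05. edgeR on the recovered reads called 0 and DESeq2 called 5, all higher, beside 9 and 180 calls over all 14109 genes in those fits. The median log2 change was 0.28, against 0.01 over all tested genes, and 36 of the 47 changes were above 0 in each cell type. Of the 14 early activation genes, 12 of which rose without drug, 0 were called with it, and their median log2 change was 0.45. When the 4 actinomycin D libraries were fitted alone, 24 were called higher and 0 lower, as were 1442 and 1069 of all genes. Mki67 had 31711 and 36347 scaled reads in resting Th2 and CD8 cells with the drug and 46933 and 40177 in stimulated cells with the drug. Kif11 had 7145 and 9067 at rest with the drug and 9392 and 10237 with both. Both genes had higher values after stimulation, the opposite order to that without drug, yet neither change passed the adjusted threshold (log2 0.36 ± 0.19 and 0.28 ± 0.16, limma adjusted p = 0.506 and 0.519). Aurka, the centrosomal Aurora kinase, had the largest of these changes, from 264 and 383 to 713 and 1006.

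The difference between the 2 stimulation responses was tested by the interaction of stimulation and drug. The response with drug was higher than that without it for 39 of the 47 genes and lower for 0, beside 7.06% and 7.44% of all tested genes. The median log2 interaction was 1.48, against -0.01 over all tested genes. Arhgef39 had the largest (3.23 ± 0.39, limma adjusted p = 0.00799), followed by Fam64a (2.87 ± 0.35, limma adjusted p = 0.00799). Mki67 had 1.79 ± 0.27 (limma adjusted p = 0.0131), Plk1 1.62 ± 0.35 (limma adjusted p = 0.0288), Kif11 1.56 ± 0.23 (limma adjusted p = 0.0129) and Ccnb1 1.34 ± 0.21 (limma adjusted p = 0.0144). Top2a (1.17 ± 0.27), Aurkb (1.06 ± 0.21) and Cdk1 (0.66 ± 0.18) were also called. Cdc20 (1.27 ± 0.37, limma adjusted p = 0.0585), Birc5 (0.66 ± 0.20, limma adjusted p = 0.0618) and Cenpa (0.06 ± 0.17, limma adjusted p = 0.833) were not. This count depended on single libraries, and so did the calls over all 10972 tested genes, 1591 in the full fit. Without the stimulated Th2 library with drug 2 mitosis genes were called, beside 25 of all genes. Without either resting library with drug the numbers were 12 (Th2) or 11 (CD8), beside 117 or 135. Leaving out the resting library without drug gave 15 (Th2) or 25 (CD8), beside 227 or 321. Leaving out the stimulated CD8 library with drug gave 24, beside 534. All of these calls of mitosis genes were in the same direction, with fewer degrees of freedom in each fit.

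In resting cells actinomycin D lowered 28 of the 47 genes and raised 1, beside 25.3% and 21.0% of all tested genes. The median log2 change was -0.68, against -0.01. Aurka fell most, from 2818 and 2357 scaled reads in resting Th2 and CD8 cells to 264 and 383 with the drug, or 8.08-fold lower (log2 -3.01 ± 0.22, limma adjusted p = 0.000409). Kif18b, a kinesin that shortens astral microtubules, went from 2035 and 1647 to 602 and 436 (-1.83 ± 0.17, limma adjusted p = 0.000618). Ckap2l, a spindle protein, went from 3424 and 3765 to 837 and 1243 (-1.81 ± 0.21, limma adjusted p = 0.00102). Plk1 went to 310 and 620 (-1.78 ± 0.25, limma adjusted p = 0.00182). The values with drug lay under both resting values in each of these 4 genes. Ccnb1 went to 1036 and 1250 (-0.98 ± 0.15, limma adjusted p = 0.00239), Cdc20 to 926 and 1806 (-0.93 ± 0.26, limma adjusted p = 0.0229) and Cdk1 to 3214 and 3527 (-0.59 ± 0.13, limma adjusted p = 0.00841). Falls were also called for Top2a (to 22376 and 25824), Kif11 and Aurkb (to 2087 and 2216). Mki67 (-0.50 ± 0.19, limma adjusted p = 0.0679) and Birc5 (4073 and 4828 with the drug, 0.16 ± 0.14) were not called. The 9 checkpoint and anaphase genes held 2 of the 28 falls, with a median of 0.00, while 5 of 6 kinesins and 5 of 6 centromere and kinetochore genes fell.

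Cenpa was the 1 gene called higher, from 3370 and 3356 at rest to 5169 and 4785 with the drug (log2 0.56 ± 0.12, limma adjusted p = 0.00905), but had a log2 change of -0.42 when libraries were scaled to ribosomal protein genes, which moved the median of all genes from -0.01 to -0.99. Under that scaling all 47 genes were called lower, with a median of -1.66, beside 8086 of all 10972 tested genes. Without the resting Th2 library 16 were called, and without the resting Th2 or CD8 library with drug 15 or 18. Over all tested genes the calls in these fits were 3210, 2082 and 2698, against 5086 in the full fit.

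In stimulated cells most levels were higher with the drug than without it. Of the 47 genes 32 rose and 1 fell, beside 23.6% and 27.3% of all tested genes, and the median log2 change was 0.73, against -0.01. Scaling to ribosomal protein genes gave 23 higher and 3 lower, beside 1270 and 4014 of all 10972 tested genes. The median was then 0.44, against -0.29 over all genes. Fam64a rose most, from 114 and 133 scaled reads in stimulated Th2 and CD8 cells to 762 and 1241 with the drug, or 7.84-fold (log2 2.97 ± 0.25, limma adjusted p = 0.00025). Arhgef39 rose from 52.1 and 105 to 425 and 453 (2.55 ± 0.28, limma adjusted p = 0.000542). For Arhgef39 the values with both treatments were close to the 425 and 422 of resting cells. Mki67 rose from 14449 and 21757 to 46933 and 40177 (1.29 ± 0.19, limma adjusted p = 0.00172), Kif11 rose by 0.97 ± 0.16 (limma adjusted p = 0.00272), and Birc5 rose to 3532 and 4273 (0.83 ± 0.14, limma adjusted p = 0.00276). Cenpa rose to 4515 and 4638 (0.62 ± 0.12, limma adjusted p = 0.0054) and Aurkb to 2285 and 2742 (0.52 ± 0.15, limma adjusted p = 0.0234). In 35 of the 47 genes both stimulated values with drug lay above both without it, as in 28.0% of all tested genes.

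Kif18b was the 1 gene that fell in stimulated cells with the drug, from 777 and 810 to 447 and 407 (log2 -0.89 ± 0.17, limma adjusted p = 0.00449). Its 4 libraries with drug were all under its 4 libraries without. Top2a (29587 and 31927 with both treatments), Ccnb1 (1380 and 1538), Cdc20 (1262 and 2275), Cdk1 (4729 and 4912) and Plk1 (420 and 845) were not called, with log2 changes of 0.45, 0.36, 0.34, 0.08 and -0.16. Cd68, the 1 myeloid marker tested, was also higher with the drug, by 1.51 at rest and 1.77 in stimulated cells, and the part of other cells in the changes with drug was not tested.

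**Figure D3:**
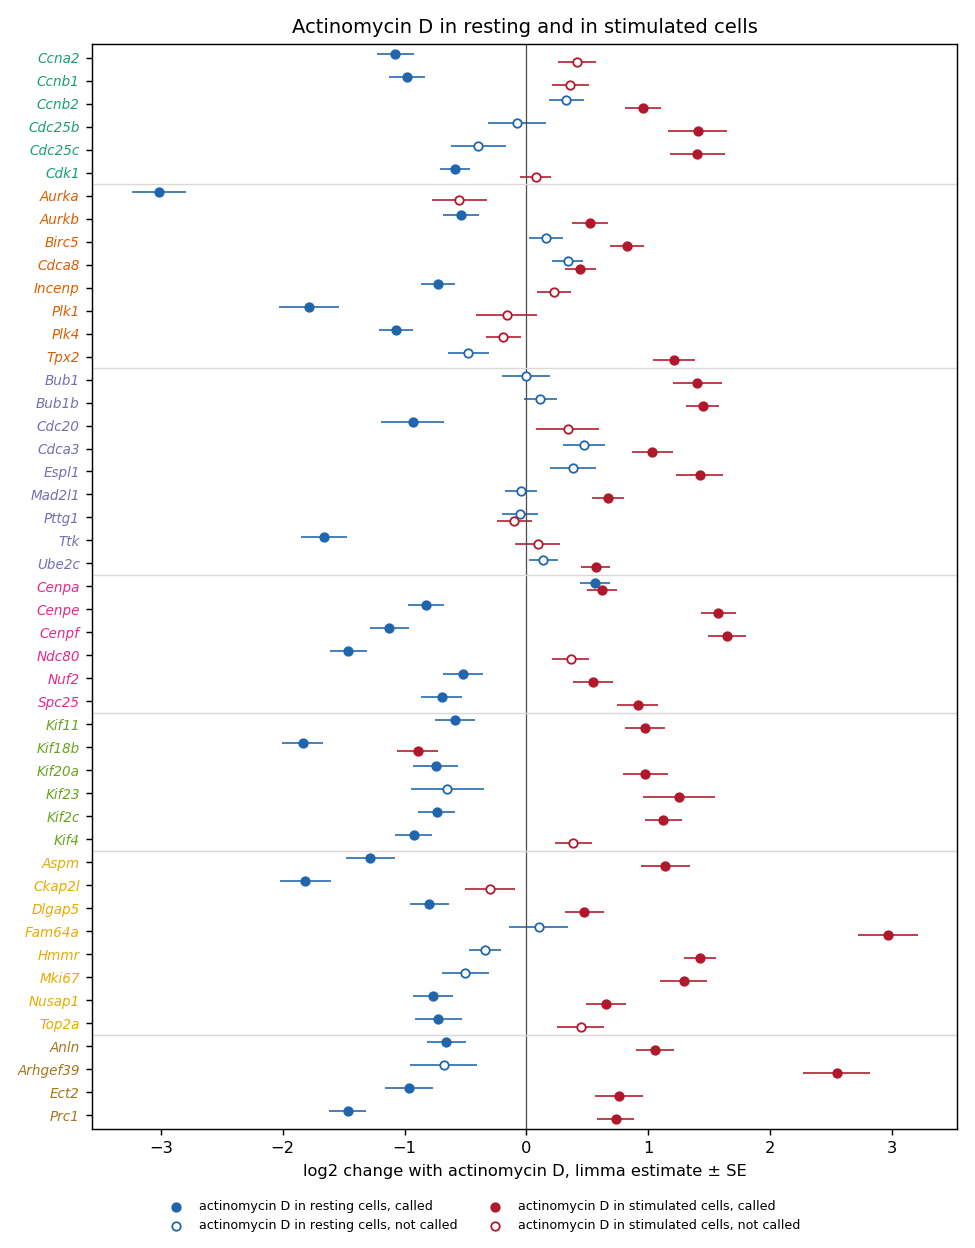
Log2 change with actinomycin D for the 47 tested genes in resting (blue) and stimulated cells (red), as the limma estimate with its SE, filled where the adjusted p was under 0.05. Most blue points lie left of 0 and most red points right of it, and Kif18b has both on the left and Cenpa both on the right.

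The neighbouring genes of the pathway moved in part with these. For the counts on stimulation without drug, the shares of all tested genes were 13.4% lower and 14.7% higher. On stimulation without drug 24 of 30 other spindle and cytokinesis genes fell and 0 rose, with a median log2 change of -1.04, and Depdc1b had the largest fall (-1.98 ± 0.21, limma adjusted p = 0.00166). Of 34 other centromere and kinetochore genes 16 fell and 1 rose, led by Sgol2, the shugoshin that protects centromeric cohesion (3.99-fold lower, SE of the log2 change 0.16, limma adjusted p = 0.000785), while Zwint was higher by 0.50 ± 0.11 (limma adjusted p = 0.0194), a call that was lost under both other scalings. Of 20 condensin and cohesin genes 10 fell and 0 rose, with Esco2, a cohesin acetyltransferase, at -1.98 ± 0.22 (limma adjusted p = 0.00175). Of 17 APC/C genes 2 were lower and 1 was higher, with a median of -0.10, and among these Fbxo5, the inhibitor EMI1, fell by 0.95 and Ube2s, which extends ubiquitin chains, was higher by 0.81. Among 10 other CDK1 regulators 3 fell and 2 rose. Mastl, the kinase Greatwall, fell by 1.71 and Pkmyt1, an inhibitory kinase of CDK1, was higher by 0.74. Of 27 regulators of the FOXM1, MYB and DREAM group 9 fell and 0 rose, and the largest fall was that of Cdkn1b, the CDK inhibitor p27 (-2.13 ± 0.27, limma adjusted p = 0.00259). For comparison, 20 of 44 DNA replication genes fell and 0 rose, with a median of -0.42. With ribosomal protein scaling 3884 of all 10972 tested genes were called lower and 661 higher. Under it 41 of the 44 DNA replication genes were called lower, as were 26 of the 34 centromere and kinetochore genes. So were 18 of the 20 condensin and cohesin genes and 7 of the 17 APC/C genes, and 0 genes of these lists, Ube2s and Pkmyt1 included, were called higher. Under both other scalings no called gene of these lists had the opposite sign in this contrast.

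With actinomycin D at rest, of the other spindle and cytokinesis genes 15 fell and 1 rose, beside 25.3% and 21.0% of all tested genes. Fam83d, a spindle protein, had the largest fall (log2 -3.62 ± 0.22, limma adjusted p = 0.000331). Wee1, the kinase that holds CDK1 inactive, fell by 3.07 ± 0.19 (limma adjusted p = 0.000331), Fbxo5 by 2.37 ± 0.24 (limma adjusted p = 0.000767) and Sgol2 by 2.18 ± 0.16 (limma adjusted p = 0.000411). Pkmyt1 was higher by 1.15 ± 0.17 (limma adjusted p = 0.00222). With ribosomal protein scaling 28 of the 30 spindle and cytokinesis genes were called lower and 0 higher, beside 8086 and 75 of all 10972 tested genes. Pkmyt1 was not called higher under that scaling. In stimulated cells with the drug 17 of the 30 spindle and cytokinesis genes rose and 2 fell, beside 23.6% and 27.3% of all tested genes. With ribosomal protein scaling 10 of them rose and 3 fell, beside 1270 and 4014 of all 10972 tested genes. Among the spindle and cytokinesis genes Bora, a cofactor of Aurora A, rose by 1.21 ± 0.14 (limma adjusted p = 0.00061) and Ccnf, cyclin F, fell by 1.97 ± 0.26 (limma adjusted p = 0.00104).

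GCLiPP peaks, 70-base windows of read density that the authors searched for in 3′ UTRs, were listed for 30 of the 48 genes, 79 peaks in all of the 27729. That was 62.5% of the genes, beside 59.1% of tested gene symbols. Of 46 mitosis genes with a mean of at least 400 scaled reads 29, or 63.0%, had a peak, beside 74.4% of all genes at that level. The median score of the 79 peaks was 21, with a range from 13 to 158, against a median of 24 over the whole list. Prc1, which bundles the microtubules of the spindle midzone, had the most peaks with 8, followed by Cdc25b and Top2a with 7 each and Mki67 and Incenp with 5 each. The highest score was 158, for a peak of Spc25 at chr2:69193958-69194027 (mm10, minus strand), followed by 157 for Mki67, 107 for Cdca3 and 97 for Cdca8. Cks2, with the lowest RNA values, had 2 peaks, while Ccnb1, Ccnb2, Cdc20, Bub1, Bub1b, Cenpe, Cenpf, Aspm and 10 others had none. Of the 79 peaks 74 were named as main peaks of the list, 4 carried the name rapidmain and 1 the name th2. The list pools libraries, and so gives no comparison between resting and stimulated cells.

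The sequences under these peaks, read from GENCODE transcripts on the RNA strand for the 74 peaks that lie inside 1 exon, held few of the letters searched. AATAAA, the polyadenylation signal, occurred in 5 of the 74, or 6.76%, beside 6.51% of 25603 peaks. The Pumilio letters TGTANATA occurred in 3, or 4.05%, beside 1.70%, and ATTTA, the AU-rich pentamer, in 8, or 10.8%, beside 7.90%. A run of TTTTT occurred in 11, or 14.9%, beside 12.8%, so that all of these shares lay near those of the whole list or rested on 3 peaks. The next windows show, with the matched letters in capitals, 2 Pumilio matches in the most abundant genes, the AU-rich pentamer of Espl1 and the polyadenylation signal of the second peak of Spc25.
Mki67, peak score 53 (chr7:135689954-135689983, minus strand): taaagatgaacTGTAAATActactgctact
Top2a, peak score 17 (chr11:98993005-98993034, minus strand): tcaatgtctttTGTAAATAtttaatatgtc
Espl1, peak score 56 (chr15:102324255-102324284, plus strand): aaacttggttttgattATTTAgaattttta
Spc25, peak score 20 (chr2:69193900-69193929, minus strand): ctgcttgtgttAATAAActtgcttgttgtc

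**Figure D4:**
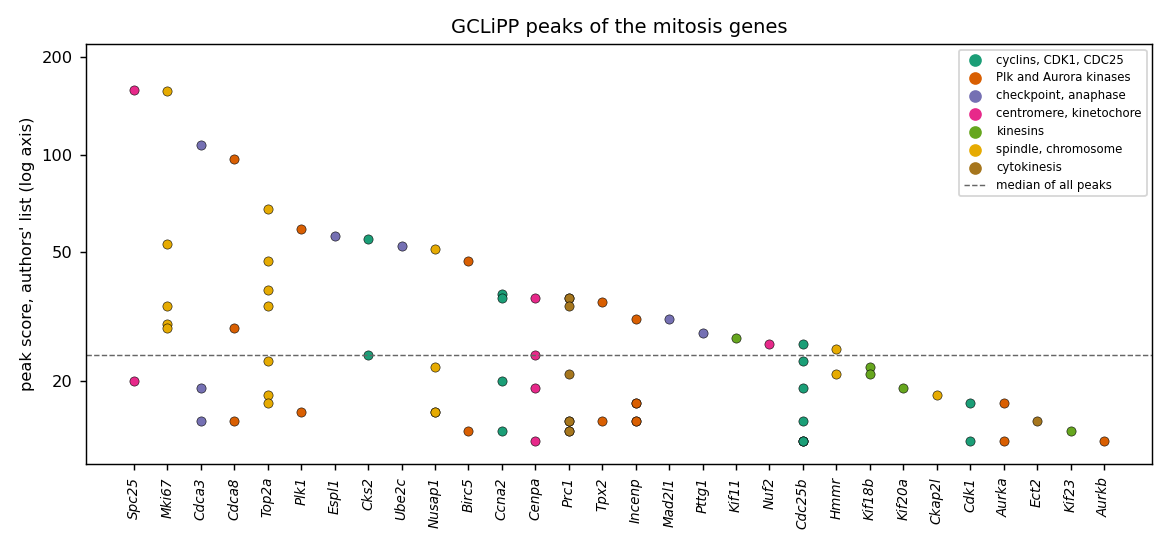
Scores of the 79 GCLiPP peaks (points, log axis) of the 30 mitosis genes that had one, ordered by their highest peak and coloured by role, with the median of the whole list, 24, as a dashed line. Spc25 and Mki67 lead with 158 and 157, and 35 of the peaks lie at or above the line. Points of equal score in a gene overlap.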

How the data were processed

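The authors aligned RNA-seq reads with STAR and GCLiPP reads with Bowtie2 to mm10, removed PCR duplicates from the GCLiPP reads, pooled them and listed peaks with a score. The deposited RNA table holds a signal, whole reads divided by a size factor per library (all values were whole multiples within 0.01 reads), although the methods speak of FPKM. A second deposited table repeats these values with the authors' fold changes and was not used. Per the methods, RNA from the crosslinked lysate was made into libraries with a stranded kit, but whether counting used strand is not given in the sources used here. Genes that overlap on opposite strands are therefore uncertain. Here log2(value + 1) of genes with a mean of at least 50 was fitted with limma 3.58.1 (trend, Benjamini-Hochberg over all genes) on cell type and stimulation by drug, with 3 residual degrees of freedom. Changes understate those of low genes. edgeR 4.0.16 and DESeq2 1.42.0 ran on the recovered reads as alternatives. The members and lists were chosen with earlier results of these data known. Named in the text are 10 fixed members, the 4 largest falls and 2 largest rises called in each contrast, those moving against the median, and in pathway lists the largest called changes. Other members are named for their role. GCLiPP sequences came from GENCODE vM21.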

Additional observations from a re-analysis of the deposited data

Results flagged for a closer look

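Fam64a and Plk1 changed in opposite directions in Th2 and CD8 cells by more than 0.1 on the log2 scale, and neither difference was tested, since each value compares 1 library with 1. For Fam64a under actinomycin D in resting cells the log2 change was -0.29 in Th2 and 0.49 in CD8 cells. For Plk1 under actinomycin D in stimulated cells it was -0.47 in Th2 and 0.15 in CD8 cells.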

How the results depend on the processing

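A pseudocount of 5, a minimum mean of 10, no filter, quantile normalisation and edgeR kept the number of mitosis genes called within 1.5 times in the 6 contrasts. Leaving out 1 library at a time gave 24 to 41 calls for stimulation without drug, 0 to 3 with drug (3 without the stimulated Th2 and 2 without the stimulated CD8 library), 2 to 43 for the interaction, 15 to 38 for the drug at rest, 24 to 38 for the drug in stimulated cells and 0 to 10 for CD8 against Th2. Over all 10972 tested genes these ranges were 783 to 4096, 0 to 117, 25 to 3315, 2082 to 6333, 3308 to 5902 and 2380 to 4741. For stimulation with drug the count was 6 with ribosomal protein scaling, 5 with DESeq2 and 24 in the 4 actinomycin libraries alone. Over all genes 195 of 10972, 180 of 14109 and 2511 of 10972 were called in these fits. For the drug at rest the count was 47 with ribosomal protein scaling, when 8161 of all 10972 tested genes were called. For CD8 against Th2 it was 1 in an additive model, when 2358 of all 10972 were called. Cenpa in resting cells with drug reversed to -0.42 with ribosomal protein scaling. The causes were not tested. Of the other values for named genes 1016 stayed on their side of the threshold, 107 lost and 36 gained a call, and 12 that had not been called changed sign. In an alternative chosen after seeing the data, the 36 genes without shared sequence or overlap on the opposite strand gave 32, 0, 31, 22, 27 and 6 calls in the 6 contrasts, in the order above. Of the 79 peaks 35 reached the median score of the list, and 78 were assigned by overlap with gene bounds. No paired analysis was possible because no replicate number could pair libraries, with 1 library in each RNA group and GCLiPP peaks pooled over replicates. Cell type, which pairs the Th2 and CD8 libraries, was already a term of the fit.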
